A study of Mus musculus with 22 samples.

Results

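The cytosolic ribosomal protein genes were taken as the rows whose gene symbol begins with Rpl, Rps or Rplp followed by a number, leaving out pseudogene names and the S6 kinases, with at least 100 counts in every library of at least 1 group. The name pattern matched 89 of 55055 genes present in all 4 count tables, and 86 of the 89 reached the minimum. The 86 comprise 43 genes of the large subunit, 30 of the small subunit, the 3 genes of the acidic stalk (Rplp0, Rplp1 and Rplp2) and 10 genes named as paralogs or copies of a subunit gene. Of these 10, Rpl10l, Rpl39l, Rpl22l1, Rpl7l1 and Rps27l are annotated as protein-coding, Rps4l as a transcribed processed pseudogene, and Rps3a2, Rps3a3, Rpl6l and Rpl32l as processed pseudogenes. The minimum was met in all 10 groups by 82 genes. Rpl10l and Rpl39l met it in the mES cells only, and Rpl6l and Rpl32l in the Activin A gastruloids at 96 h. Rpl3l, Rpl36al and Rps12l1 stayed below it, with at most 27, 29 and 11 counts in any library.

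RNA was sequenced from poly(A) libraries of mouse embryonic stem (mES) cells and of models grown from them, as 22 libraries in 10 groups. The wild-type (wt) cells were compared with Hox-/- cells, whose libraries carry the name BADC and which the series describes as lacking all function of the Hox genes, the transcription factors that pattern the body axis. The mES groups (2 wt and 2 Hox-/- libraries) were kept with LIF at 100 ng/ml, the GSK-3 inhibitor CHIR99021 at 3 µM, the MEK inhibitor PD0325901 at 1 µM and 10% serum. The endoderm groups (3 wt and 3 Hox-/- libraries) received Activin A at 100 ng/ml with CHIR99021 at 3 µM at 24 h and again at 72 h, and were collected at 120 h. Gastruloids, which are aggregates of mES cells that elongate along an axis, came in 2 kinds. Wt gastruloids named Chiron, another name of CHIR99021, were collected at 96 h and 120 h. Gastruloids named Activin A were collected at the same times from wt and Hox-/- cells. Each gastruloid group held 2 libraries, and the doses given to gastruloids were not given in the sources used here. The endoderm and gastruloid samples are labelled as mixed cells. The labels do not say whether replicates came from separate cultures or how many clones carry the Hox-/- genotype, so the p-values measure only the spread between these libraries, and a property of a clone cannot be told apart from the genotype.

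Totals lay between 9108085 and 28819301 counts per library. The 96 h gastruloid libraries held 14953662 to 28819301 counts and the 120 h libraries 9108085 to 11930416, so depth and time cannot be told apart in these groups. The summed level of 39 Hox genes was 30.4 to 35.7 CPM (counts scaled to the library total) in wt mES cells and 0.448 to 1.34 in Hox-/- mES cells. In endoderm the range was 828 to 877 in wt and 22.5 to 28.6 in Hox-/- libraries, and in Activin A gastruloids 625 to 1190 against 63.8 to 104. All 7 mES markers and all 7 endoderm markers examined were above 3 counts in the libraries of the endoderm groups.

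The cytosolic ribosome translates every messenger RNA encoded in the nucleus. Its small subunit decodes the message and its large subunit joins amino acids, and each structural protein is needed in one copy per ribosome, apart from the stalk proteins P1 and P2. Nearly all ribosomal protein mRNAs belong to the 5′ TOP class: they begin with a C followed by a run of pyrimidines, through which the mTOR pathway and the protein Larp1 control their translation. Transcription of these genes is known to respond to growth signals and to Myc, and several free ribosomal proteins, among them Rpl5, Rpl11 and Rpl23, bind Mdm2 and so stabilise p53.

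Start sites are shown for Rpl7a, Rpl4 and Rps18, whose levels moved in the comparisons below, and for 3 paralogs. Each line holds 30 bases centred on the annotated start (RefSeq, GRCm38.p6, 5′ to 3′), with the longest run of C and T in capitals.
Rpl7a (chr2:26910792-26910821, plus strand): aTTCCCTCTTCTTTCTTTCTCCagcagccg
Rpl4 (chr9:64173372-64173401, plus strand): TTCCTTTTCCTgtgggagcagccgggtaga
Rps18 (chr17:33955651-33955680, minus strand): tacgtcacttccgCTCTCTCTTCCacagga
Rpl22l1 (chr3:28805493-28805522, plus strand): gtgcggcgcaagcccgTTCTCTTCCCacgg
Rpl39l (chr16:10170213-10170242, plus strand): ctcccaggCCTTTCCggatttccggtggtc
Rpl10l (chr12:66284387-66284416, minus strand): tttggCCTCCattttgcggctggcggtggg
The capitals run over 21 bases in Rpl7a, 11 in Rpl4, 11 in Rps18 and 10 in Rpl22l1, against 7 in Rpl39l and 5 in Rpl10l. The run of Rpl4 is cut by the edge of its line and measures 14 bases within 20 bases of the start. Of the ribosomal protein genes, 62 had an entry in the promoter table. A run of at least 8 C or T bases lay within 20 bases of the start in 31 of the 62 (50%), against 4965 of 27025 genes of the table (18.4%). Short runs were not limited to paralogs. In the same window the longest run was 4 bases in Rpl9 and Rpl26 and 3 in Rpl41 and Rpl23, subunit genes whose levels also moved. The run was sought on the transcribed strand and may lie on either side of the start, so it describes the letters and not a functional motif.

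The coding sequences of Rpl10l and Rpl39l are shown beside those of Rpl10 and Rpl39, because reads of the 2 copies must be told apart for the results on these paralogs to hold. Each line gives the transcript's coding strand (GENCODE, GRCm38), with bases that differ within the pair in capitals.
Rpl10l, coding bases 1 to 120: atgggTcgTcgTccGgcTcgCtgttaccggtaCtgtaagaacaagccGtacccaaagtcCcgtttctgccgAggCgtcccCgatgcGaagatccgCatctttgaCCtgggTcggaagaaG
Rpl10, coding bases 1 to 120: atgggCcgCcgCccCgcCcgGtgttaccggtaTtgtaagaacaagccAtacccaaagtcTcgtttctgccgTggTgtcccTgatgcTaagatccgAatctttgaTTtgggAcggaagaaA
Rpl39l, coding bases 1 to 156: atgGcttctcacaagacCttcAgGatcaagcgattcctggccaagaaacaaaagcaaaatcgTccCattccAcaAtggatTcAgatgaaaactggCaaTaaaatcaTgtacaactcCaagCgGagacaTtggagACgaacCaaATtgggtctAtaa
Rpl39, coding bases 1 to 156: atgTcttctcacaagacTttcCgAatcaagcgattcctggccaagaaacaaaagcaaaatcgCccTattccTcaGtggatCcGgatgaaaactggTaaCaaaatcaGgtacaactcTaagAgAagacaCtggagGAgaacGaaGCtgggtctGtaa
Rpl10l and Rpl10 differ at 18 of the 120 bases shown and are identical at 84.81% of 645 coding bases, with no identical stretch longer than 23 bases. Rpl39l and Rpl39 differ at 23 of 156 bases (85.26% identity), with a longest identical stretch of 38 bases. Identity was lower for Rps27l with Rps27 (76.08%), Rpl22l1 with Rpl22 (66.93%) and Rpl7l1 with Rpl7 (51.72%). Rps4l, Rps3a2, Rps3a3, Rpl6l and Rpl32l are copies whose reads the authors' counting could share with the parent genes, and their values are uncertain for that reason.

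Summed over the 86 genes, ribosomal protein mRNAs took 6.77% to 10.3% of all counts. In wt mES cells the share was 7.28% and 7.18%, and in Hox-/- mES cells 7.02% and 6.77%. The highest shares were those of wt endoderm, at 10.1%, 10.3% and 10.2%, and Hox-/- endoderm lay at 8.61%, 8.27% and 8.79%. The 3 wt endoderm libraries stood above every other library of the series, and the mES and endoderm genotypes did not overlap. In gastruloids the shares were 7.59% and 8.18% (Chiron, 96 h), 8.31% and 8.19% (Chiron, 120 h), 7.67% and 7.77% (wt Activin A, 96 h), and 8.83% and 9.15% (wt Activin A, 120 h). The Hox-/- Activin A gastruloids had 7.58% and 7.25% at 96 h and 8.17% and 8.24% at 120 h. In all 3 kinds of gastruloid the 120 h libraries lay above those of 96 h. In Chiron gastruloids the means of 7.88% ± 0.417 (SD, n = 2) at 96 h and 8.25% ± 0.0853 at 120 h differed by less than the spread at 96 h. Of the 86 genes, 49 had their highest group mean CPM in wt endoderm and 16 in wt Activin A gastruloids at 120 h, and 37 had their lowest in Hox-/- mES cells. These are bulk samples, in which fewer cells of a type and less RNA per cell cannot be told apart.

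**Figure D1:**
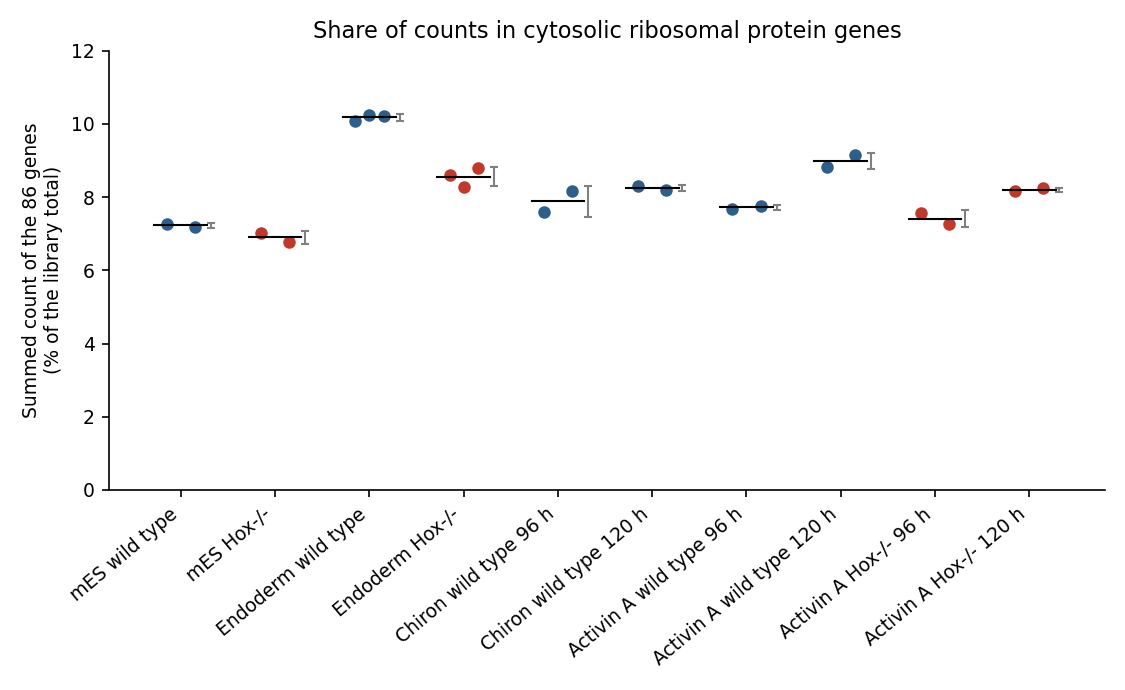
Summed counts of the 86 cytosolic ribosomal protein genes as a percent of all counts in each library (points; blue wt, red Hox-/-), with the group mean (black line) and SD (grey bar). The 3 wt endoderm libraries lie highest, and Hox-/- means lie below wt means in mES cells, in endoderm and at both times of Activin A gastruloids.

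Per transcript length, the genes spanned a wide range. By the median FPKM (fragments per kilobase of transcript, scaled to library size) over libraries, the highest were Rplp1 (4363), a stalk protein, Rpl41 (4348), which encodes the shortest ribosomal protein, and Rps24 (3907). The lowest were Rpl39l (0.446), Rpl10l (1.95) and Rpl32l (2.16). FPKM depends on the transcript model used for each gene, and the length implied by the deposited values was unusual for Rps20 and Rpl7l1. Across the 10 groups the genes with the widest range of mean log2(CPM + 1) were Rpl10l (7.60), Rpl39l (6.15), Rpl32l (2.44), Rps4l (2.21) and Rpl6l (1.99), all of them paralog-type. Apart from Rps4l, these 5 genes reached the minimum of 100 counts only in the groups where they were high, so a wide range follows from how the genes were chosen. The narrowest ranges were those of Rpl7 (0.279), Rpl37a (0.417), Rps3a3 (0.460), Rps15a (0.484) and Rps25 (0.485). Among subunit genes Rps14 had the widest range (1.78), followed by Rpl29 (1.51) and Rpl41 (1.34).

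The comparison of endoderm with mES cells addressed the change with differentiation. In wt cells, 68 of 86 genes were higher in endoderm and 5 were lower (84.9% called, against 79.9% of all 16251 genes tested, of which 41.6% were higher and 38.3% lower), by edgeR's quasi-likelihood test at an adjusted p under 0.05. The median log2 fold change was 0.36, against 0.07 over all genes. The small subunit gave 28 of 30 higher and 0 lower, the large subunit 36 of 43 higher and 0 lower, and 2 of the 3 stalk genes, Rplp0 (0.37) and Rplp2 (0.29), were higher. The 5 lower genes were the paralogs Rpl10l, Rpl39l, Rpl7l1, Rps4l and Rps27l. Rpl10l and Rpl39l met the count minimum in mES cells only. Their fall, in wt and in Hox-/- cells, is thus part of how they were chosen. In Hox-/- cells, 60 were higher and 10 lower (81.4%, against 80.6% of all genes, 42.7% higher and 37.9% lower), with a median of 0.25. The mES and endoderm libraries are in separate tables, so the stage cannot be told apart from the preparation of the libraries.

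Rpl17, which lies at the exit of the peptide tunnel, had 946 and 933 CPM in wt mES cells and 1938, 2064 and 1977 in wt endoderm. The corresponding values of Rps19, a small subunit protein mutated in Diamond-Blackfan anaemia, were 702 and 724 against 1433, 1400 and 1362. In both genes every endoderm library lay above both mES libraries. The log2 fold changes were 0.97 ± 0.05 (SE) for Rpl17 and 0.85 ± 0.05 for Rps19, with adjusted p of 1.3e-13 and 1.7e-12. In Hox-/- cells Rpl17 (0.66) and Rps20 (0.59) were among the higher genes with the smallest p. Genes with little or no difference included Rpl7 (0.09 in wt, 0.02 in Hox-/-) and Rps29 (0.02 and 0.07), neither of which passed the test. Rps2, Rpl6, Rpl8 and Rpl14 were lower in Hox-/- endoderm than in Hox-/- mES cells (-0.30, -0.20, -0.29 and -0.19) and did not pass in wt cells (0.03, -0.07, -0.09 and -0.03). These 4 genes were chosen after their values were seen.

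Related genes were taken from lists. Of 40 ribosome biogenesis genes, which make and process ribosomal RNA, 38 were lower and 1 higher in wt endoderm than in wt mES cells (median -0.71). In Hox-/- cells 36 were lower and 0 higher (median -0.68). Nucleolin (Ncl) changed by -1.0 and -1.06, and fibrillarin (Fbl) by -0.30 and -0.31. Of the 78 mitochondrial ribosomal protein genes, 51 were lower and 9 higher in wt (median -0.31). Of the structural genes outside the name pattern, Rpsa (0.42), Fau (0.65) and Rack1 (0.62) rose in wt cells.

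**Figure D2:**
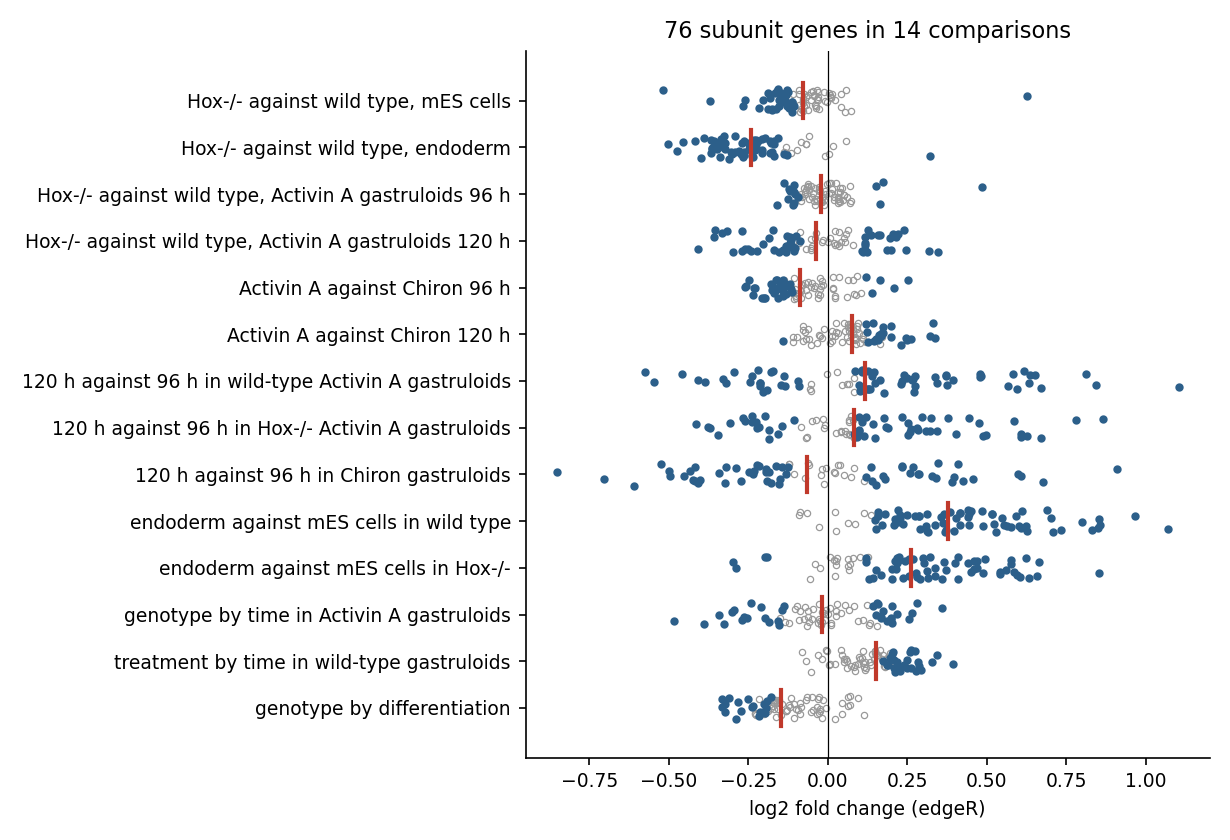
Log2 fold changes of the 76 subunit and stalk genes in each of the 14 contrasts (points; filled blue for an adjusted p under 0.05, open grey otherwise), with the median as a red line. Nearly all points lie above 0 for endoderm against mES cells and below 0 for Hox-/- against wt endoderm, whereas the gastruloid contrasts of genotype and of time spread to both sides of 0. For Activin A against Chiron the called genes are mostly lower at 96 h (5 higher, 28 lower) and mostly higher at 120 h (22 higher, 1 lower). For the change of that difference with time they are all higher (27 higher, 0 lower).

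The genotype comparison asked how the loss of Hox function touched these genes in each model. In mES cells 1 gene was higher and 36 were lower in Hox-/- than in wt libraries (43.0% of 86 called, against 23.2% of 13631 genes, 12.4% higher and 10.8% lower), with a median of -0.08 against 0.00 over all genes. The changes were small: the median size among called genes was 1.12-fold and none reached 2-fold. All 3 stalk genes were lower (Rplp0 -0.11, Rplp1 -0.17, Rplp2 -0.26), as were 11 of 30 small and 17 of 43 large subunit genes. The count of 37 fell to 10 without wt replicate 1 and to 15 without wt replicate 2, and it was 13 with DESeq2 and 10 with the summed ribosomal protein count as the library size. With limma on log2(FPKM + 1) it was 0, with 17 genes at an unadjusted p under 0.05. Rps21, a small subunit protein, had 478 and 467 CPM in wt and 390 and 343 in Hox-/- cells, and Rpl36 had 449 and 407 against 345 and 253. Neither gene's groups overlapped, though Hox-/- replicate 2 of Rpl36 lay far below replicate 1. The changes were -0.37 ± 0.05 (adjusted p = 1.9e-07) for Rps21 and -0.52 ± 0.07 (adjusted p = 4.0e-07) for Rpl36.

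In endoderm, 66 of 86 genes were lower and 2 higher in Hox-/- libraries (79.1%, against 46.2% of 14975 genes, 23.1% in each direction), with a median of -0.24 against 0.00 over all genes. By role, 24 of 30 small subunit, 35 of 43 large subunit and all 3 stalk genes fell (Rplp0 -0.24, Rplp1 -0.35, Rplp2 -0.34). The Mdm2-binding Rpl5 (-0.22), Rpl11 (-0.22) and Rpl23 (-0.18) and the ubiquitin fusion Rps27a (-0.36) fell too. Rpl9, a large subunit protein, had 1616, 1657 and 1463 CPM in wt and 1111, 1086 and 1130 in Hox-/- endoderm. Its groups stood well apart, and it changed by -0.50 ± 0.05 (adjusted p = 4.3e-06). Leaving out any 1 library kept the count of called genes between 60 and 69, and with the summed ribosomal protein count as the library size it was 25.

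The 2 higher genes in endoderm were Rps14 (0.32, described below) and the copy Rpl6l (0.83 ± 0.26, adjusted p = 0.016). Rpl6l was counted at only 1.60 to 1.87 CPM in wt and 2.46 to 4.26 CPM in Hox-/- libraries. Its call was lost without wt replicate 2 (adjusted p = 0.051) or Hox-/- replicate 1 (adjusted p = 0.094). The 2 genotypes also differed in their markers: the 7 mES markers summed to 769 to 905 CPM in wt and 228 to 249 in Hox-/- endoderm, and the 7 endoderm markers to 291 to 293 against 136 to 140. None of these 14 markers was at or under 3 counts in a group. Their part in the fall of the ribosomal protein genes was not tested. Beside them, 14 of 20 translation factor and other TOP mRNA genes were lower and 1 was higher (median -0.18), and 15 of 40 ribosome biogenesis genes were lower and 2 higher (median -0.08). Of 14 p53 targets, 8 were higher and 0 lower, led by Cdkn1a, the cell cycle inhibitor p21 (1.05). Between mES genotypes Bbc3 (-0.39), Aen (-0.32), Phlda3 (-0.29), Ccng1 (-0.19), Sesn2 (-0.19) and Trp53inp1 (-0.14) were lower. Ei24 (0.66) and Zmat3 (0.14) were higher there, and Cdkn1a did not pass (-0.05). Between Activin A genotypes at 96 h, Pmaip1 (-0.28) was lower, Aen did not pass (0.04) and the other tested targets were higher. The part of p53 was not tested.

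The difference between the 2 genotype effects was itself tested. Between endoderm and mES cells the genotype effect differed for 20 of 86 genes, all of them more negative in endoderm (23.3%, against 24.1% of 16251 genes, 11.6% more positive and 12.5% more negative). Rps3, a small subunit protein at the mRNA entry, did not pass in mES cells (0.01) and changed by -0.34 in endoderm. The difference was -0.33 ± 0.06 (adjusted p = 6.3e-04). With the summed ribosomal protein count as the library size, which compares each gene with the others of its class, 10 genes were called. Without wt mES replicate 1 the count was 11, and it was 7 without wt mES replicate 2 or without Hox-/- mES replicate 1.

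In Activin A gastruloids at 96 h, 6 genes were higher and 13 lower in Hox-/- libraries (22.4% of 85, against 38.9% of 16831 genes, 22.2% higher and 16.7% lower), with a median of -0.02. The split depended on the scaling: 31.6% of calls were higher with TMM scaling, 13.5% with library totals alone and 58.3% with length offsets. The higher genes with the smallest p were Rps14 (0.49), the copy Rpl32l (0.70 ± 0.15, adjusted p = 1.7e-04) and Rpl39 (0.17 ± 0.04, adjusted p = 4.8e-04). Rps27 (-0.16) and Rpl26 (-0.14) were lower. Without Hox-/- replicate 2, Rps27 (adjusted p = 0.45) and Rpl26 (adjusted p = 0.31) were no longer called, nor was Rpl26 without wt replicate 2 (adjusted p = 0.12). The count was 9 without either wt replicate 2 or Hox-/- replicate 2, and 34 without Hox-/- replicate 1. It was 8 with DESeq2, 11 with limma on log2(FPKM + 1), 37 with library totals alone and 40 with no filter on low counts, so the count depended on the processing. The 38.9% of all genes belongs to the fit with TMM scaling, and the share of all genes under the other settings is not given here. The 7 endoderm markers summed to 518 to 577 CPM in wt and 150 to 153 in Hox-/- libraries, and the 5 caudal progenitor markers to 2685 to 2802 against 3535 to 3576. Their part in these changes was not tested.

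At 120 h, 23 genes were higher and 32 lower in Hox-/- Activin A gastruloids (64.7%, against 50.4% of 16831 genes, 24.9% higher and 25.5% lower), so that the median (-0.02) lay near 0 while single genes moved both ways. The 41.8% of calls that were higher became 11.5% with library totals alone, which moved the median of all genes by -0.11, and 73.7% with length offsets. Rpl4, a large subunit protein, had 1724 and 1757 CPM in wt and 2029 and 2071 in Hox-/- libraries, and Rps4x, a small subunit protein, 1978 and 2026 against 2292 and 2329. Rpl9 had 2237 and 2334 CPM in wt and 1591 and 1596 in Hox-/- libraries, and Rpl13a 1392 and 1527 against 1052 and 1061. No genotypes overlapped in these 4 genes, with Hox-/- above wt in the first pair and below it in the second. The changes were 0.35 ± 0.04 for Rpl4, 0.32 ± 0.04 for Rps4x, -0.41 ± 0.04 for Rpl9 and -0.35 ± 0.04 for Rpl13a, with adjusted p between 6.8e-12 and 3.5e-10. Rpl14 (0.24) was also among the 3 higher genes with the smallest p, and Rpl17 (-0.36) among the 3 lower.

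By role, the 120 h genotype comparison gave 7 of 30 small subunit genes higher and 15 lower, and 12 of 43 large subunit genes higher and 15 lower. Of the stalk genes, Rplp0 (0.12) and Rplp1 (0.12) rose and Rplp2 did not pass (0.03). Among the Mdm2-binding proteins Rpl23 rose (0.19) and Rpl5 (-0.27) and Rpl11 (-0.10) fell, and Rps27a fell (-0.17). Of 40 ribosome biogenesis genes 31 were higher and 1 lower (median 0.36), and of 20 translation factor and TOP genes 12 were higher and 1 lower (median 0.17). Mitochondrial ribosomal protein genes gave 8 higher and 28 lower of 78 (median -0.12). Without wt replicate 2 the count of called ribosomal protein genes was 36, and with limma on log2(FPKM + 1) it was 23. Marker sums differed between the genotypes at 120 h. The 7 endoderm markers had 447 to 457 CPM in wt and 168 to 175 in Hox-/- libraries, the 4 neural markers 48.2 to 50.6 against 5.6 to 7.29, and the 5 markers of presomitic and somitic mesoderm 363 to 369 against 544 to 555. Of these markers only the neural Olig2 was at or under 3 counts in a group (Hox-/-), and their part in the changes of the ribosomal protein genes was not tested.

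Whether the genotype effect changed between 96 h and 120 h was tested with an interaction term, which called 19 genes more positive and 18 more negative at 120 h (43.5% of 85, against 38.9% of 16831 genes, 18.7% and 20.2% in these directions). Rpl4 (0.36 ± 0.05), Rps4x (0.28 ± 0.05) and Rpl7a (0.26 ± 0.05) led the positive side. At 96 h Rpl4 (-0.01) and Rps4x (0.04) had not passed, and Rpl7a was lower in Hox-/- gastruloids (-0.09). Rpl41 (-0.48 ± 0.06), Rpl13a (-0.39 ± 0.05) and Rpl35a (-0.34 ± 0.05) led the negative side. Rpl41 had 1276 and 1340 CPM in wt and 1460 and 1339 in Hox-/- gastruloids at 96 h, then 2087 and 2304 against 1600 and 1630 at 120 h. Its genotypes overlapped at 96 h and stood apart at 120 h, with wt above. The share of calls on the positive side was 51.4%, and it became 25.7% with library totals alone and 77.1% with length offsets. With limma on log2(FPKM + 1) the interaction called 11 genes.

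The same sign in all 4 genotype comparisons was found for 8 of 85 genes, against 2.75% of 12519 genes tested in all 4. Rps14 was higher in Hox-/- libraries each time. Rpl9, Rpl10l, Rpl26, Rpl32, Rps7, Rps10 and Rps27 were lower each time. Apart from Rpl10l, the 6 lower genes had changes between -0.10 and -0.20 in mES cells and at 96 h, with Rps10 the largest in mES cells (-0.20) and Rpl32 the smallest at 96 h (-0.10). Their calls were fragile: without wt mES replicate 1, or without Hox-/- Activin A replicate 2 at 96 h, only Rps14 and Rpl10l still passed all 4 comparisons. The same 2 genes remained with DESeq2 and with the summed ribosomal protein count as the library size, and with length offsets beside Rpl36. With limma on log2(FPKM + 1) the count was 0, against 7 at an unadjusted p under 0.05, of which Rpl10l and Rpl9 are among the 8. Without wt mES replicate 2, Rps10 remained with them, and without wt Activin A replicate 2 at 96 h it was Rps27. Leaving out single 120 h libraries also shrank the set. Rpl10l was lost from it without wt replicate 1 or either Hox-/- replicate at 120 h, while Rps14 was kept each time. With length offsets the 120 h changes of Rpl26 (0.06), Rpl32 (0.04), Rps7 (0.03) and Rps10 (0.01) were above 0.

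Rps14 encodes a protein of the small subunit's platform whose loss on one chromosome is known from the 5q- syndrome. It lies at chr18:60747098-60778546 on the plus strand (mm10). In mES cells it had 902 and 869 CPM in wt and 1394 and 1348 in Hox-/- libraries. In endoderm the values were 1718, 1686 and 1816 against 2238, 1977 and 2274. In Activin A gastruloids they were 1186 and 1262 against 1756 and 1549 at 96 h, and 2696 and 2850 against 3010 and 3079 at 120 h. Every Hox-/- library lay above every wt library of its own stage. The log2 fold changes were 0.63 ± 0.04 (adjusted p = 1.6e-15), 0.32 ± 0.06 (adjusted p = 7.1e-04), 0.49 ± 0.04 (adjusted p = 1.2e-13) and 0.25 ± 0.04 (adjusted p = 2.9e-06).

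The call of Rps14 held in all 4 comparisons when any 1 library was left out. At 120 h the change was 0.13 with library totals alone. With limma on log2(FPKM + 1) the changes were 0.62, 0.23, 0.36 and 0.20 and none passed (adjusted p from 0.068 to 0.23). Genes near Rps14 were also higher: of those tested within 1 Mb, 15 of 19 were higher in Hox-/- mES cells, 15 of 24 in endoderm, 21 of 27 in gastruloids at 96 h and 15 of 27 at 120 h. On the rest of the chromosome the shares were 16.4%, 27.9%, 23.9% and 30.2%. The part of the neighbourhood in the level of Rps14 was not tested.

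**Figure D3:**
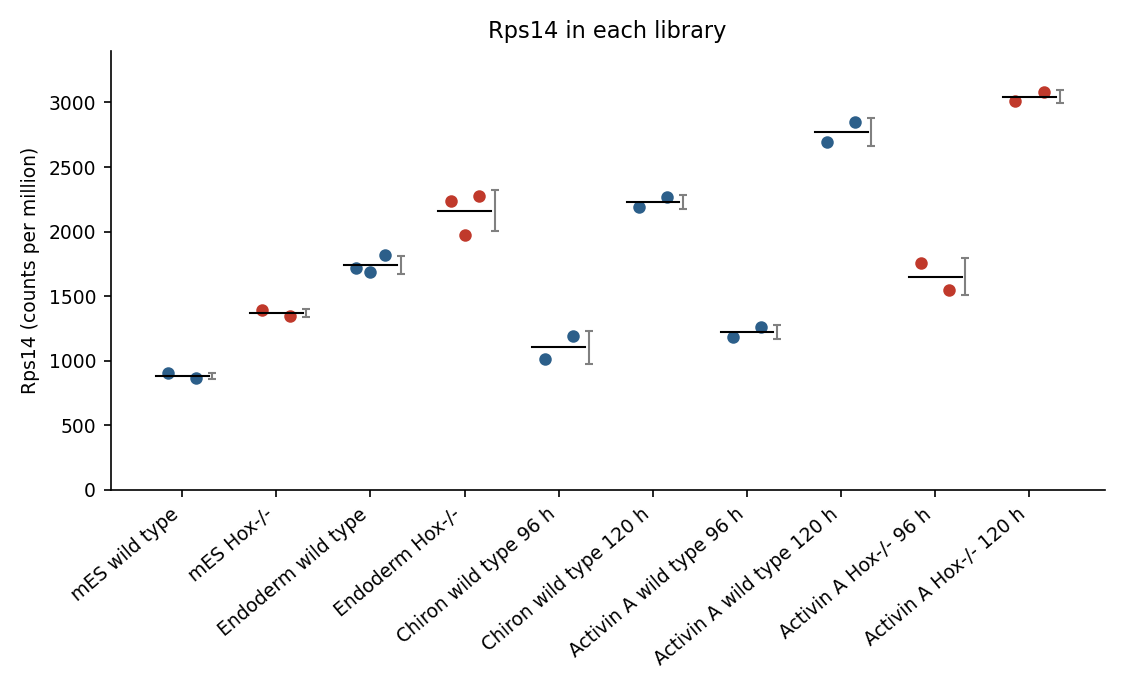
Rps14 level in CPM of the library total for each library (points; blue wt, red Hox-/-), by group, with the mean (black line) and SD (grey bar). In mES cells, in endoderm and at both times of Activin A gastruloids every Hox-/- library lies above the wt libraries, and 120 h gastruloids lie above 96 h gastruloids.

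The comparison of 120 h with 96 h asked how the genes changed as gastruloids matured. In wt Activin A gastruloids 44 genes were higher and 30 lower at 120 h (87.1% of 85, against 74.9% of 16831 genes, 37.2% higher and 37.8% lower), with a median of 0.10. In Hox-/- Activin A gastruloids 39 were higher and 24 lower (74.1%, against 72.4%, 34.9% higher and 37.6% lower), with a median of 0.07. In Chiron gastruloids 26 were higher and 37 lower (74.1%, against 61.7% of 17305 genes, 28.5% higher and 33.2% lower), with a median of -0.06. The higher share of the calls moved with the scaling, from 59.5% to 77.8% in wt Activin A and from 61.9% to 78.1% in Hox-/- gastruloids with length offsets, and from 41.3% to 60% in Chiron gastruloids with library totals alone. In all 3 comparisons 22 of 85 genes were higher and 18 were lower, against 15.5% and 18.6% of the 16603 genes tested in all 3.

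The 22 genes higher at 120 h in all 3 kinds of gastruloid included Rps14, Rps18, Rpl36, Rpl10a, Rpl32, Rpl26, Rps7, Rps10, Rps24, Rpl41 and the stalk gene Rplp0. Rps14 rose by 1.1 ± 0.04, 0.86 ± 0.04 and 0.91 ± 0.06 in wt Activin A, Hox-/- Activin A and Chiron gastruloids. Rps18, a small subunit protein, had 1345 and 1435 CPM at 96 h and 2650 and 2606 at 120 h in wt Activin A gastruloids. In Hox-/- Activin A gastruloids it had 1320 and 1139 against 2057 and 2225, and in Chiron gastruloids 1194 and 1423 against 2250 and 2253. Each 120 h library lay above each 96 h library. The changes of Rps18 were 0.84 ± 0.05, 0.78 ± 0.05 and 0.68 ± 0.06, and those of Rpl36 were 0.81, 0.67 and 0.60.

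The 18 genes lower at 120 h in all 3 included Rpl4, Rpl30, Rpl23, Rpl10, Rps3a1, Rps20, Rps27 and the stalk genes Rplp1 and Rplp2. They also count the copies Rpl6l and Rpl32l, which met the count minimum only at 96 h. Rpl30, a large subunit protein, had 419 and 415 CPM at 96 h and 284 and 318 at 120 h in wt Activin A gastruloids. In Hox-/- gastruloids it had 406 and 394 against 307 and 300, and in Chiron gastruloids 441 and 475 against 271 and 275. No 96 h library overlapped with a 120 h library of the same kind. Rpl30 changed by -0.55, -0.42 and -0.85, and Rpl4 by -0.57, -0.22 and -0.70. Stalk genes thus parted: Rplp0 rose (0.34, 0.40 and 0.12), while Rplp1 (-0.32, -0.23 and -0.40) and Rplp2 (-0.20, -0.22 and -0.41) fell. Compared with the other ribosomal proteins in Chiron gastruloids, with the summed count as the library size, Rps14 (0.95), Rps18 (0.72) and Rpl36 (0.64) rose, and Rpl30 (-0.81) and Rpl4 (-0.66) fell.

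The order of the changes was similar between kinds of gastruloid. Over the 76 subunit and stalk genes the changes in wt and Hox-/- Activin A gastruloids had Pearson's r of 0.864 and Spearman's rho of 0.834, and 65 genes had the same sign. Those of wt Activin A and Chiron gastruloids had r of 0.957 and rho of 0.948, and 59 genes had the same sign. For Hox-/- Activin A and Chiron gastruloids r was 0.86 and rho 0.829, and 54 genes had the same sign. These are correlations across genes, which are not independent replicates, and the 96 h libraries were deeper in every kind. Marker genes changed with time as well: the 5 caudal progenitor markers fell from 1442 to 1663 CPM to 613 to 674 in Chiron, from 2685 to 2802 to 514 to 520 in wt Activin A and from 3535 to 3576 to 474 to 487 in Hox-/- gastruloids. Their part in the changes of the ribosomal protein genes was not tested.

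**Figure D4:**
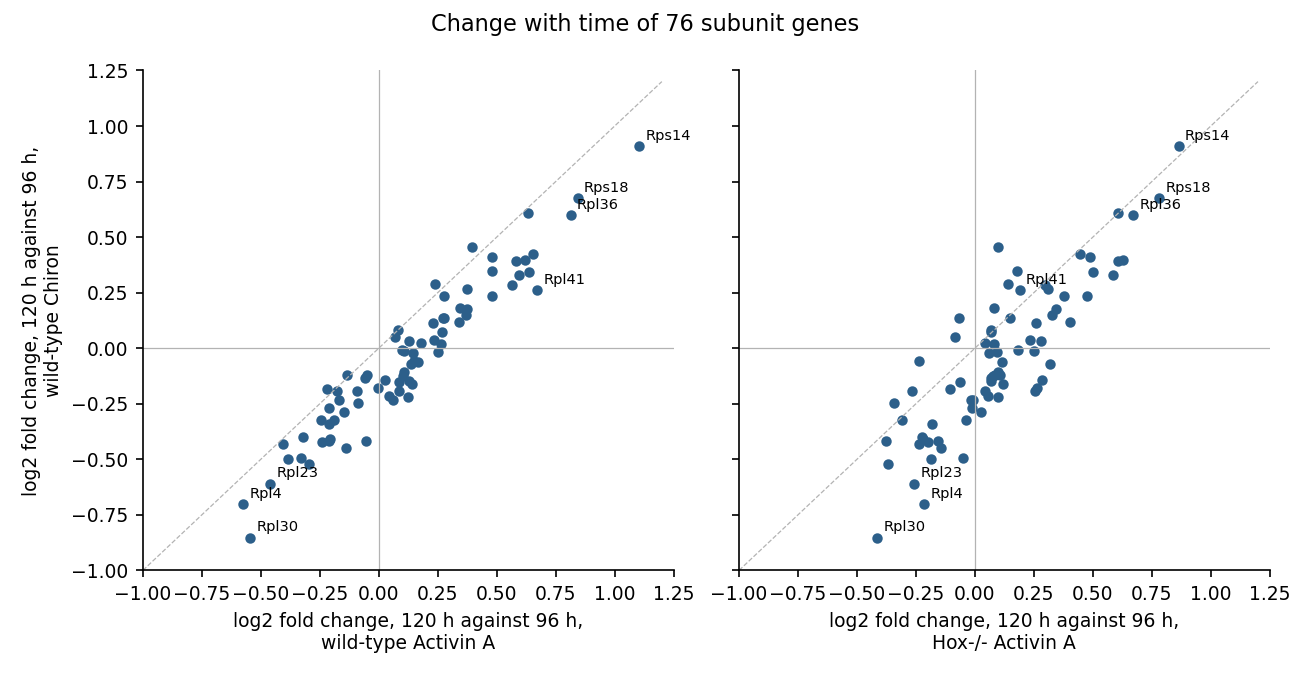
Log2 fold change at 120 h against 96 h of the 76 subunit and stalk genes, Chiron gastruloids (vertical axis) against wt and Hox-/- Activin A gastruloids (horizontal axes of the 2 panels). Points follow a rising band in both panels (r = 0.957 and 0.86), with Rps14 at the upper end and Rpl30 and Rpl4 at the lower.

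Pathway genes showed their own course over the same interval. Of 40 ribosome biogenesis genes 26 were lower and 5 higher at 120 h in wt Activin A gastruloids (median -0.28), and 29 were lower and 4 higher in Chiron gastruloids (median -0.33). In Hox-/- Activin A gastruloids 19 were higher and 11 lower (median 0.09). The interaction of genotype and time called 33 of these 40 genes higher and 0 lower. Mycn, a Myc-family factor, rose by 0.65 in wt and by 1.85 in Hox-/- Activin A gastruloids and fell by 1.23 in Chiron gastruloids, with an interaction of 1.2 between the genotypes. The Myc family did not move alike. For the interaction of treatment and time in wt gastruloids, Mycn (1.855) and Myc (0.851) were positive and Mycl (-1.166) was negative. The part of these factors was not tested. Genes of the nuclear-encoded respiratory chain were lower for 61 of 87 in wt and 78 of 87 in Hox-/- Activin A gastruloids.

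Activin A and Chiron gastruloids of the wt genotype were compared at each time. The wt Activin A libraries also serve in the genotype and time comparisons, so these results are not independent of them. At 96 h 10 genes were higher and 30 lower in Activin A gastruloids (47.1% of 85, against 61.6% of 17305 genes, 31.3% higher and 30.2% lower), with a median of -0.08. At 120 h 22 were higher and 5 lower (31.8%, against 41.9%, 20.3% higher and 21.6% lower), with a median of 0.07. The higher part of the calls at 96 h was 25%, and it became 59.3% with library totals alone and 6.67% with length offsets. At 120 h it was 81.5%, against 94.9% and 64.0%. The 96 h count was 23 without wt Activin A replicate 1 and 17 without replicate 2, and without Chiron replicate 2 at 96 h 22 genes were higher and 15 lower. The 120 h count was 16 without Chiron replicate 2 and 8 without wt Activin A replicate 2. With limma on log2(FPKM + 1) the counts were 21 and 10. Marker sums also differed at 96 h: the 7 endoderm markers had 518 to 577 CPM in Activin A and 154 to 189 in Chiron gastruloids, the 7 mES markers 1066 to 1092 against 247 to 328, the 5 caudal progenitor markers 2685 to 2802 against 1442 to 1663, and the 5 presomitic and somitic markers 120 to 129 against 541 to 613. At 120 h the endoderm markers had 447 to 457 against 72.7 to 75.9 CPM. None of these markers was at or under 3 counts in a group, and their part in the differences was not tested.

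At 96 h the subunit genes lower in Activin A gastruloids included Rpl4, with 2476 and 2442 CPM against 2805 and 2787 in Chiron gastruloids, a change of -0.25 ± 0.05 (adjusted p = 9.1e-05). Rplp0 (-0.26), Rps4x (-0.26) and Rpl12 (-0.23) were lower as well. The 3 higher genes with the smallest p were all paralog-type: Rpl32l (1.02), Rpl6l (0.85) and Rps27l (0.33, and -0.03 with length offsets). Rpl32l and Rpl6l met the count minimum only in the Activin A groups at 96 h. Their higher level there is thus part of how they were chosen. At 120 h Rpl41 had 2087 and 2304 CPM in Activin A and 1678 and 1694 in Chiron gastruloids, with no overlap and a change of 0.33 ± 0.05 (adjusted p = 2.0e-05). Rpl9 (0.32 ± 0.06) and Rpl36 (0.34 ± 0.06) were higher too. Rpl7l1 (-0.33 ± 0.05) and Rps4l (-0.22 ± 0.07) were lower, and Rps4l lost its call without Chiron replicate 2 or without either wt Activin A replicate at 120 h (adjusted p from 0.056 to 0.081).

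The change of the treatment difference with time was called for 32 of 85 genes (37.7%, against 39.6% of 17305 genes, 21.7% more positive and 18.0% more negative), with 27 more positive in Activin A gastruloids at 120 h and 5 more negative. All 27 were subunit or stalk genes and all 5 were paralog-type. Rpl41 (0.39 ± 0.07), Rpl12 (0.33 ± 0.07) and Rpl22 (0.29 ± 0.07) led the first set. Rpl12, which forms the base of the stalk, fell with time in Chiron gastruloids (-0.22) and rose in Activin A gastruloids (0.13). Rpl7l1 (-0.43 ± 0.07), Rps4l (-0.47 ± 0.09) and Rps27l (-0.39 ± 0.10) led the second set. Relative to the other ribosomal proteins, with their summed count as the library size, 1 gene was more positive and 8 were more negative. The count was 58 with length offsets and 50 without Chiron replicate 1 at 96 h. It was 21 without Chiron replicate 2 at 120 h, 14 and 20 without wt Activin A replicates 1 and 2 at 96 h, and 15 without wt Activin A replicate 2 at 120 h.

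Rpl10l and Rpl39l were included because they reached 100 counts in the mES cells alone, so their high level there is part of how they were chosen and their fall from mES cells to other groups is given as a description. Rpl10l, an autosomal copy of the X-linked Rpl10 best known from the testis, had 195 and 190 CPM in wt and 158 and 135 in Hox-/- mES cells. In wt endoderm it had 6.00, 8.84 and 7.95 CPM, and in Hox-/- endoderm 0.625, 1.35 and 1.45. Every mES library lay far above every endoderm library, and in both stages wt lay above Hox-/- with no overlap. Rpl10l was 27.2-fold lower in wt endoderm than in wt mES cells and 137-fold lower in the Hox-/- groups. Its genotype change was -0.39 ± 0.06 (adjusted p = 1.2e-06) in mES cells and -2.74 ± 0.25 (adjusted p = 6.6e-07) in endoderm, and the difference between them was -2.33 ± 0.24. As a share of Rpl10, whose own level was 942 to 1759 CPM in all libraries, Rpl10l counts were 18.3% ± 0.851 in wt and 15.4% ± 1.97 in Hox-/- mES cells (SD, n = 2), 0.518% ± 0.105 in wt and 0.0963% ± 0.0336 in Hox-/- endoderm (n = 3).

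Rpl10l was low in all gastruloids and near the limit of detection in those of Activin A. Chiron gastruloids had 44 and 70 counts at 96 h and 45 and 33 at 120 h. Wt Activin A gastruloids had 17 and 20 counts at 96 h and 4 and 2 at 120 h, and Hox-/- Activin A gastruloids 1 and 1, then 0 and 0. Adjusted for depth, the wt to Hox-/- ratio at 96 h was 13.9, with an exact 95% interval of 3.59 to 119 that covers counting error only. At 120 h 6 counts stood against 0, for which no fold is given. That call was lost without wt replicate 1 (adjusted p = 0.082) or without either Hox-/- library (adjusted p = 0.065 and 0.056). Rpl10l was lower in Activin A than in Chiron gastruloids at 96 h (-1.64 ± 0.27) and at 120 h (-3.50 ± 0.43). Its time changes in wt Activin A (-1.28) and Chiron gastruloids (0.56) passed with all libraries. Leaving out any of the 4 libraries ended the first call (adjusted p from 0.060 to 0.28), and leaving out Chiron replicate 1 at 96 h or either Chiron library at 120 h ended the second (adjusted p from 0.078 to 0.20).

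Rpl39l, a copy of the X-linked Rpl39, which lines the exit tunnel, was likewise detected mainly in mES cells. It had 68.9 and 71.2 CPM in wt and 67.6 and 70.8 in Hox-/- mES cells, then 2.11, 3.50 and 2.48 in wt and 0.341, 0.308 and 0.441 in Hox-/- endoderm. The mES genotypes overlapped and the endoderm genotypes did not. It was 27.6-fold lower in wt endoderm than in wt mES cells, and 198-fold lower in Hox-/- cells. The genotype change was -0.02 in mES cells, which did not pass, and -2.87 ± 0.33 in endoderm (adjusted p = 6.8e-06), with a difference of -2.84 ± 0.30 (adjusted p = 7.2e-07). These 2 genes moved beside the mES markers, whose sums in endoderm are given above, and the part of remaining mES cells was not tested. Rpl39l was below the filter on low counts in the gastruloid tables, and no count of it was found in wt Activin A gastruloids at 120 h or in either Hox-/- Activin A group.

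**Figure D5:**
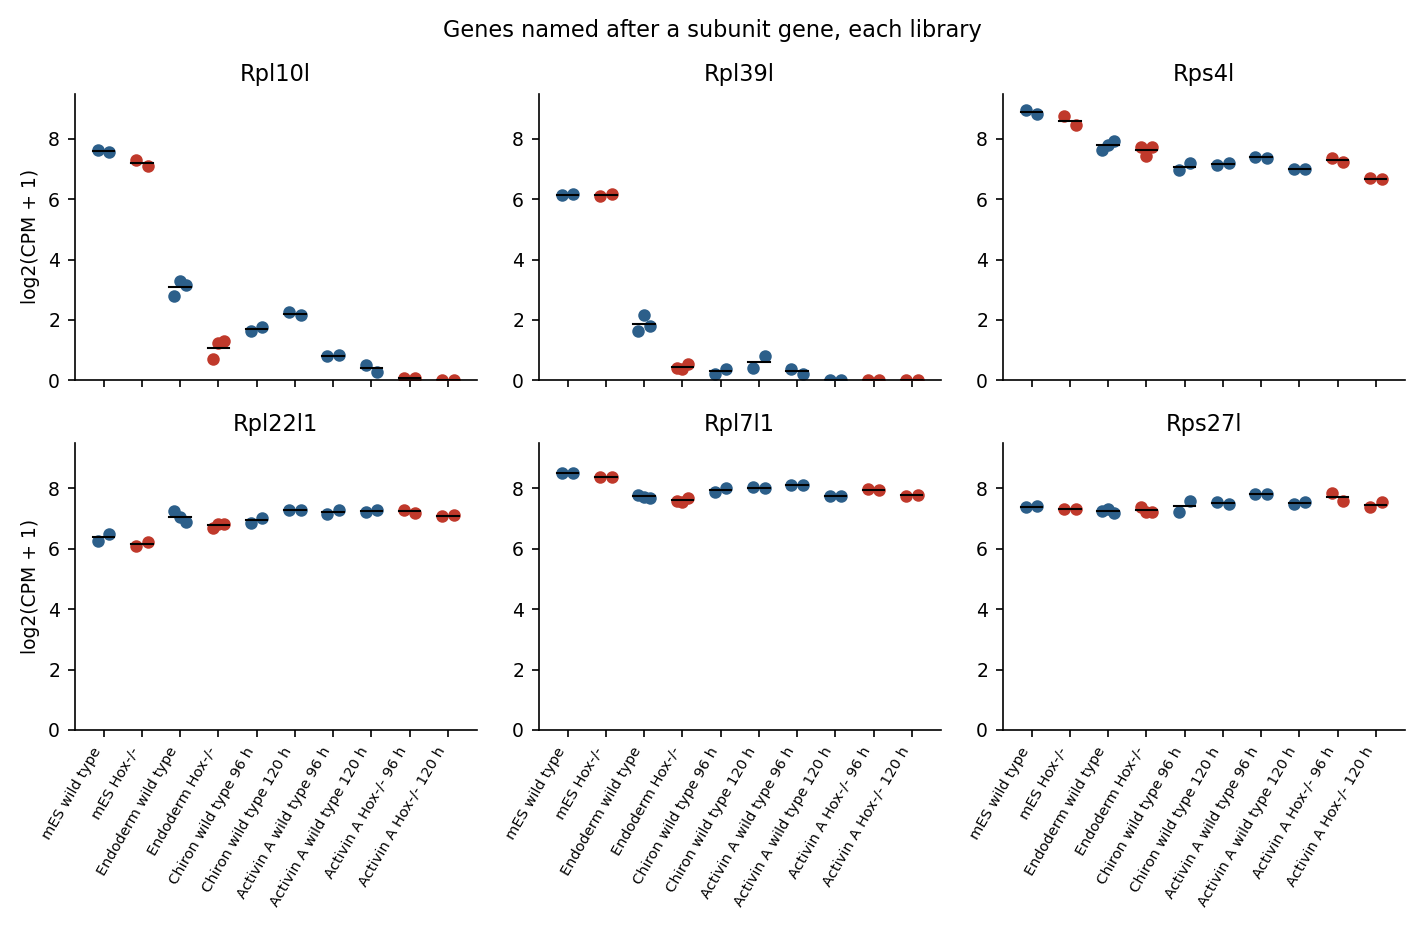
Log2(CPM + 1) of 6 paralog-type genes in each library (points; blue wt, red Hox-/-), with the group mean as a black line. Rpl10l and Rpl39l drop from the mES groups to the endoderm groups and are low in gastruloids, Rps4l and Rpl7l1 are highest in mES cells, and Rpl22l1 is lowest there.

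Rpl22l1, a paralog of Rpl22 that is known to be repressed by Rpl22 protein, ran the other way from Rpl10l. It had 76.4 and 89.6 CPM in wt mES cells and 151, 131 and 117 in wt endoderm, and was higher in endoderm by 0.56 ± 0.09 in wt and 0.54 ± 0.09 in Hox-/- cells. It was lower in Hox-/- endoderm (-0.28 ± 0.07, adjusted p = 0.0069), with 102, 113 and 111 CPM, all below the wt libraries. The mES change (-0.23, adjusted p = 0.013) was lost without wt replicate 2 (adjusted p = 0.44) or Hox-/- replicate 1 (adjusted p = 0.066). As a share of Rpl22 counts, Rpl22l1 was 16.2% ± 1.74 in wt mES cells (SD, n = 2) and 39.3% ± 1.14 in Chiron gastruloids at 120 h, its highest group. Between 96 h and 120 h in Chiron gastruloids it rose by 0.23 ± 0.06 while Rpl22 fell by 0.45 ± 0.05. Rpl22l1 (0.20) and Rpl22 (-0.15) also parted in Activin A against Chiron gastruloids at 96 h. They moved the same way between endoderm genotypes (-0.28 and -0.29) and with time in Hox-/- Activin A gastruloids (-0.17 and -0.14). Both were higher in Hox-/- endoderm than in Hox-/- mES cells (0.54 and 0.13). The part of Rpl22 in the level of Rpl22l1 was not tested.

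Rpl7l1, whose product acts in ribosome assembly, had 360 and 368 CPM in wt mES cells and 219, 211 and 207 in wt endoderm, a change of -0.90 ± 0.05 (adjusted p = 7.9e-13). In Hox-/- cells it changed by -0.83 ± 0.05. It also fell with time in wt (-0.44) and Hox-/- (-0.21) Activin A gastruloids and did not pass in Chiron gastruloids (-0.03). The pseudogene Rps4l had 495 and 451 CPM in wt mES cells and 196, 222 and 244 in wt endoderm, with changes of -1.22 ± 0.09 in wt and -1.06 ± 0.09 in Hox-/- cells. Its parent Rps4x, by contrast, was higher in endoderm (0.49 and 0.40), so that Rps4l counts went from 30.7% to 9.47% of those of Rps4x in wt cells. Rps27l, a paralog of Rps27 and a p53 target, was lower in wt endoderm than in wt mES cells (-0.25 ± 0.06) and did not pass between genotypes in any of the 4 comparisons (-0.07 to 0.06).

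The copies Rpl32l and Rpl6l reached 100 counts in every library of the Activin A groups at 96 h alone, so a high level there is part of how they were chosen and their time changes are given as a description. Rpl32l had 4.84 and 4.92 CPM in wt and 6.92 and 8.56 in Hox-/- gastruloids at 96 h, and 0.540 to 0.988 CPM in the Activin A libraries of 120 h. Rpl6l had 5.95 and 7.01 against 8.56 and 9.5 CPM at 96 h, and 1.95 to 2.85 at 120 h. Between 96 h and 120 h Rpl32l changed by -2.74, -3.33 and -2.02, and Rpl6l by -1.51, -1.87 and -1.02 in wt Activin A, Hox-/- Activin A and Chiron gastruloids. Of the parent genes, Rpl32 rose with time in each kind (0.63, 0.61 and 0.61) and Rpl6 did not pass in wt Activin A gastruloids (0.00), rose in Hox-/- (0.26) and fell in Chiron gastruloids (-0.18).

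The genes whose pattern over the 10 group means of log2(CPM + 1) lay closest to Rpl22l1, among 34073 genes, were Lmbrd1 (r = 0.984), Aff3 (0.983) and Bri3 (0.981). For Rps27l they were Mroh6 (0.996), mt-Nd4l (0.976) and Mrps36-ps1 (0.967). The labels do not say which libraries were prepared together, and depth coincided with time in the gastruloid groups. The 28 subunit and stalk genes with a run of at least 8 C or T bases and the 28 without had medians of -0.247 and -0.236 between endoderm genotypes, 0.375 and 0.384 between wt endoderm and mES cells, and 0.118 and 0.100 between the times of wt Activin A gastruloids. The medians lay furthest apart for the interaction of genotype and time (-0.0599 with a run and 0.00188 without). Across the 76 genes, Pearson's r of the log2 fold change with log2 transcript length lay between -0.308 (Activin A against Chiron at 96 h) and 0.331 (the change of that difference with time). These are correlations across genes, with no test.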

How the data were processed

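Per the submitters' processing notes, the processing named cutadapt 1.16, STAR 2.7.7a, Cufflinks 2.2.1 and the build mm10. The counting tool and its strand setting are not given in the sources used here. The deposited files hold raw counts per gene in 4 tables, and the authors also deposited FPKM per gene, which supplied the symbols and was joined to counts by gene ID. Ribosomal protein genes were chosen by name and a minimum of 100 counts. Members and gene lists were chosen with earlier results of these data known. Counts were tested with edgeR 4.0.16 in R 4.3.3 (filterByExpr by group, TMM scaling, quasi-likelihood F-test, Benjamini-Hochberg adjustment over all genes tested, called at an adjusted p under 0.05). The fits covered the mES groups, the endoderm groups, the 4 Activin A groups, the 4 wt gastruloid groups, and mES with endoderm in 1 joint fit of counts. Log2 fold changes give the first group over the second after TMM scaling, with the SE from the F statistic, while CPM values use the library total. Interaction terms tested differences between effects. Depth was 9108085 to 28819301 counts per library, and intervals cover counting error only.

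Genes were named by rule: the 3 called genes with the smallest p in each direction of each contrast, the paralogs with their parents, genes with the same sign in 4 genotype contrasts, the 5 widest and 5 narrowest ranges, the 3 highest and 3 lowest FPKM, the stalk and Mdm2-binding proteins, and Rps27a. Some genes that met this rule or stood in a list, and an alternative that needed one of them, are not reported here. Alternatives were RLE size factors, library totals alone, TMM without the ribosomal protein genes, their summed count as library size, no filter, DESeq2 1.42.0, a replicate block, length offsets (lowess span 0.3), limma 3.58.1 on log2(FPKM + 1) and each library left out. The fit was tested on simulated data: in the mES comparison 22% of genes changed 1.1-fold and 96% of those changed 1.25-fold were called, in endoderm 4% and 88%, and in Activin A gastruloids at 96 h 22% and 100%. Only 200 genes, all of high count, were changed in each simulation, so these shares do not give the power in the real comparisons.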

Additional observations from a re-analysis of the deposited data

Results flagged for a closer look

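The genotype effect differed between 96 h and 120 h of Activin A gastruloids, by the interaction term in edgeR, for 37 of the 85 ribosomal protein genes. This was 43.5%, against 38.9% of 16831 genes. Rpl4 (0.3587), Rps4x (0.28) and Rpl7a (0.2559) led on the positive side of the log2 scale, and Rpl41 (-0.4821), Rpl13a (-0.3877) and Rpl35a (-0.3432) on the negative side. The difference between Activin A and Chiron gastruloids changed with time for 32 genes (37.65% of 85, against 39.6% of 17305 genes). Rpl41 (0.3927), Rpl12 (0.3279) and Rpl22 (0.2931) led in one direction, and Rps4l (-0.4658), Rpl7l1 (-0.4275) and Rps27l (-0.3941) in the other. The genotype effect differed between endoderm and mES cells for 20 genes (23.3% of 86, against 24.1% of 16251 genes). Rpl39l (-2.837), Rpl10l (-2.332) and Rps3 (-0.3319) led. Rpl39l and Rpl10l met the count minimum in mES cells only, so their values are given as a description.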

How the results depend on the processing

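Depth and the number of libraries (2 or 3 per group) limit these results. In simulated data of 3 genotype comparisons, changes of 1.1-fold were called for 4% to 22% of the genes given them. With a length trend added and length offsets in the fit, the shares were 6% to 38%. Only 200 genes, all of high count, were changed in each simulation, fewer than were called in the data. These shares therefore do not give the power in the real comparisons. Causes of the changes below were not tested.

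The number of called ribosomal protein genes differed from the reported one by over 1.5 times under these settings. In mES genotypes 10 were called with the summed ribosomal protein count as library size, 13 with DESeq2 and 0 with limma on log2(FPKM + 1), where 17 had an unadjusted p under 0.05 (37 with edgeR). In endoderm genotypes the summed count gave 25. In Activin A genotypes at 96 h, library totals gave 37, the summed count 12, no filter 40, DESeq2 8 and limma 11, and at 120 h limma gave 23. For Activin A against Chiron the summed count gave 25 and limma 21 at 96 h, and limma 10 at 120 h. For the interaction of genotype and time limma gave 11. For that of treatment and time the summed count gave 9, length offsets 58 and limma 13. For that of genotype and differentiation library totals gave 32, the summed count 10 and length offsets 31.

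With each library left out, the counts ran from 10 to 45 (mES genotypes), 60 to 69 (endoderm), 9 to 34 and 36 to 47 (Activin A at 96 h and 120 h), 17 to 41 and 8 to 21 (Activin A against Chiron), 64 to 69, 58 to 67 and 58 to 64 (time in wt Activin A, Hox-/- Activin A and Chiron), 67 to 74 and 58 to 69 (endoderm against mES cells in wt and Hox-/-), 27 to 41 (genotype and time), 14 to 50 (treatment and time) and 7 to 24 (genotype and differentiation).

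The share of counts became 22.44%, 21.85%, 30.18%, 26.38%, 23.43%, 25.86%, 21.71%, 27.99%, 20.61% and 26.35% on FPKM (in the order mES wt, mES Hox-/-, endoderm wt, endoderm Hox-/-, Chiron 96 h and 120 h, wt Activin A 96 h and 120 h, Hox-/- Activin A 96 h and 120 h).

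Signs turned for single genes with length offsets: Rps27l (-0.02892) and Rps4l (-0.06515) in Activin A against Chiron at 96 h, Rpl26 (0.05664), Rpl32 (0.04162), Rps10 (0.008522) and Rps7 (0.03204) between genotypes at 120 h, Rps27l (0.2723), Rps3a3 (0.4022) and Rps4l (0.0399) with time in wt and Rps27l (0.6077) and Rps4l (0.08682) in Hox-/- Activin A gastruloids, and Rps4l (0.04691) in the interaction of genotype and time. With limma on FPKM, Rpl22l1 (0.08746) and Rps27l (0.04478) turned with time in Hox-/- Activin A gastruloids. Of the other results on single genes under an alternative, 1678 kept direction and call and 191 kept direction but lost the call.

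With the replicate number as a block, the counts were 45, 66, 21, 55, 40, 28, 73, 64, 63, 74, 68, 41, 35 and 24, in the order of the settings with a library left out, all within 1.5 times of those reported. The deviations of same-numbered libraries correlated between -0.212 and 0.218. With 2 libraries per group both numbers give the same value. The check therefore cannot tell whether same-numbered libraries shared a culture or preparation.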
